A study of Rattus norvegicus with 6 samples.

Results

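The genes described are the apelin receptor Aplnr, its peptide ligand Apln and 8 genes that mark blood vessel endothelium (Emcn, Cldn5, Sox18, Sox17, Tek, Cdh5, Pecam1 and Vwf), in the rat heart 6 h after coronary ligation. They were found by matching the RefSeq accession of each array probe to a gene symbol. This gave 1 probe each for 9 of the 10 genes, out of 13876 named genes with a probe, and Vwf had no probe by this rule and was not analysed here. All 9 were among the 11001 named genes that entered the test, which asked that a probe rise clearly above background on every array of either group. Of the 9, 8 did so on all 6 arrays (Cdh5 did not on sham C5).

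The series compared 2 groups of male Wistar rats whose age is not given in the labels. In the border zone group the left anterior descending coronary artery (LAD) was tied. After 6 h, double staining with TTC and EB was used to find the rim of the infarct, and that tissue was taken (arrays M17, M24 and M25). The sham group had the operation without infarction and was sampled at the same time from a region the labels call the control zone (arrays C4, C5 and C6). No genetic change or drug is named, so the groups differ, per the labels, by the infarct and the zone sampled. Each rat gave 1 Agilent array of 1 colour (Cy3), read from total RNA of whole tissue. Fewer endothelial cells and less RNA per endothelial cell cannot be told apart in such tissue.

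Apelin is a secreted peptide that binds a receptor of the G-protein coupled class. In the heart the receptor is found on endothelium and on muscle cells, and apelin is known to widen vessels and to strengthen contraction. Endothelial cells line vessels, and their identity rests on junction proteins (claudin 5, VE-cadherin, PECAM-1), surface glycoproteins such as endomucin, the angiopoietin receptor TIE2 (encoded by Tek), and transcription factors of the SOXF family (Sox17 and Sox18).

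Levels are given as log2 signal minus the 75th percentile of log2 signal on the same array, so that a level of 0 is that of a bright probe. A difference of 1 is 2-fold. Levels of different probes cannot be set against each other. Errors beside a log2 fold change (border zone minus sham) are standard errors of a limma fit over 17930 probes, with 3 arrays per group. Adjusted p-values are Benjamini-Hochberg values over all of these probes, and a gene is said to rise or fall only where the adjusted p was below 0.05. These p-values measure the spread between arrays, which the series gives as separate animals. An array that lies between the others of its group, as M25 mostly did (below), narrows that spread and can make p too small.

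Several arrays stood apart from the rest. The border zone arrays and C4 came from scan 1, while C5 was in scan 2 and C6 in scan 3. The share of probes above background was 73.7% to 78.3% in scan 1, against 51.0% (C5) and 52.4% (C6). Of 10 tested markers of central neurons and glia, each had its 2 highest levels on C5 and C6 (10 of 10), with a median 2.97 (C5) and 3.18 (C6) log2 above C4. The 3 border zone arrays had medians of 0.06, 0.05 and -0.25 against C4 for the same markers. Array M25 lay between M17 and M24 for 97.6% of the 572 probes on which M17 and M24 were over 2-fold apart, and for 9 of the 9 genes described here (70.5% of all tested probes). The part of these arrays in the results below was not tested beyond leaving them out, so the 9 genes are also given against C4 alone, and the calls lost without M25 are named. The fit against C4 alone has no spread between sham animals, and its 2 residual degrees of freedom come from the border zone arrays. It gives the same values as a fit with scan as a block. Border zone array M24 stood apart in red cell and platelet genes, whose summed signal (log2) was 3.23 there and 5.59 to 6.15 on the other 5 arrays. Without M24, Aplnr (-3.46), Apln (-1.27) and Emcn (-1.09) fell in limma, while Cldn5 and Sox18 did not pass. The heart muscle markers were present: all 11 tested cardiomyocyte genes were above background on every sham array and 0 passed in limma in either direction (0 at an unadjusted p below 0.05).

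The stretch ahead of a gene's start was read for the junction gene Cldn5 and the surface glycoprotein gene Emcn, since both fell and both are known in endothelium. Promoters in the RefSeq table (GRCr8 assembly) matched 3 of the 9 genes (Apln, Cldn5 and Emcn). The window of Apln lay inside the gene's own span and is not printed. Sequences run 5′ to 3′ along the gene. Capitals mark the GGAA core bound by ETS factors or its reverse complement TTCC, searched on both strands. The Emcn stretch is chr2:228564289-228564444 on the plus strand (156 bases), and the Cldn5 stretch is chr11:95718599-95718848 on the minus strand (250 bases).
Emcn: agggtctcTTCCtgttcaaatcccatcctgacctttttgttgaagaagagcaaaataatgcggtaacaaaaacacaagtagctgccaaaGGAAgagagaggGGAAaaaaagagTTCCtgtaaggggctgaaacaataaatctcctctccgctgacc
Cldn5: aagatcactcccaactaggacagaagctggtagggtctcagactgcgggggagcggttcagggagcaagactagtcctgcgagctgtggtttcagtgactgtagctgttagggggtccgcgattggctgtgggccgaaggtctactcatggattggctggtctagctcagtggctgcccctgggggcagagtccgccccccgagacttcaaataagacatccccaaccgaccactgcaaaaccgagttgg
The Emcn stretch held 4 matches. The table's full window of 250 bases ahead of the transcript start held 6, a number reached by 9.27% of 33469 promoters, but 94 of those bases and 2 of the matches lie inside the gene's span. The Cldn5 window held 0 matches, while 93.2% of promoters held at least 1. The SOX core ACAAT, searched in the same way, was present 1 time in the Emcn stretch and 0 times in Cldn5, against 30.0% of promoters with any match. Both genes fell although their windows differ in these letters, and a match or its lack is a description of the window only.

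The apelin receptor gene fell further than the other 8 genes. Aplnr stood at 0.65, 0.49 and 0.23 on sham arrays C4, C5 and C6, and at -2.98, -3.20 and -3.02 on M17, M24 and M25 of the border zone. The groups were far apart: the lowest sham array lay more than 3 log2 units above the highest border zone array. On the linear scale before scaling, the probe read 1141.0, 682.6 and 367.7 in sham and 100.2, 92.6 and 101.2 in the border zone, and was above background on all 6. The log2 fold change was -3.52 ± 0.15 (11.5-fold lower, adjusted p = 0.000649, limma), from a sham mean of 0.46 ± 0.21 (SD, n = 3) to -3.07 ± 0.12 (SD, n = 3). It ranked as the 36th lowest log2 fold change among the 11001 named genes tested.

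The fall of Aplnr was as large without the arrays that stood apart. Against C4 alone the log2 fold change was -3.72 (adjusted p = 0.00546, limma), and without M25 it was -3.55 (adjusted p = 0.0126). With both restrictions it was -3.74 (adjusted p = 0.0321), when only 0.0613% of all probes were called lower. Aplnr passed the test in each of the 15 alternative settings, with log2 fold changes from -3.74 to -2.93. Of these, scan as a block and sham C4 alone are the same fit.

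The ligand gene fell as well, by less. Apln stood at 2.88, 2.54 and 2.35 on C4, C5 and C6, and at 1.50, 0.75 and 1.14 on M17, M24 and M25. The groups did not overlap, and C4 was the highest sham array while M24 was the lowest of the border zone. The log2 fold change was -1.46 ± 0.24 (2.75-fold lower, adjusted p = 0.0138, limma), and -1.75 (adjusted p = 0.0431) against C4 alone. Without M25 the value was nearly the same (-1.47), but the adjusted p of 0.0773 did not pass. Within each array, the level of Aplnr relative to Apln was lower in every border zone array than in every sham array, by 2.06 log2 units in the mean.

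**Figure D1:**
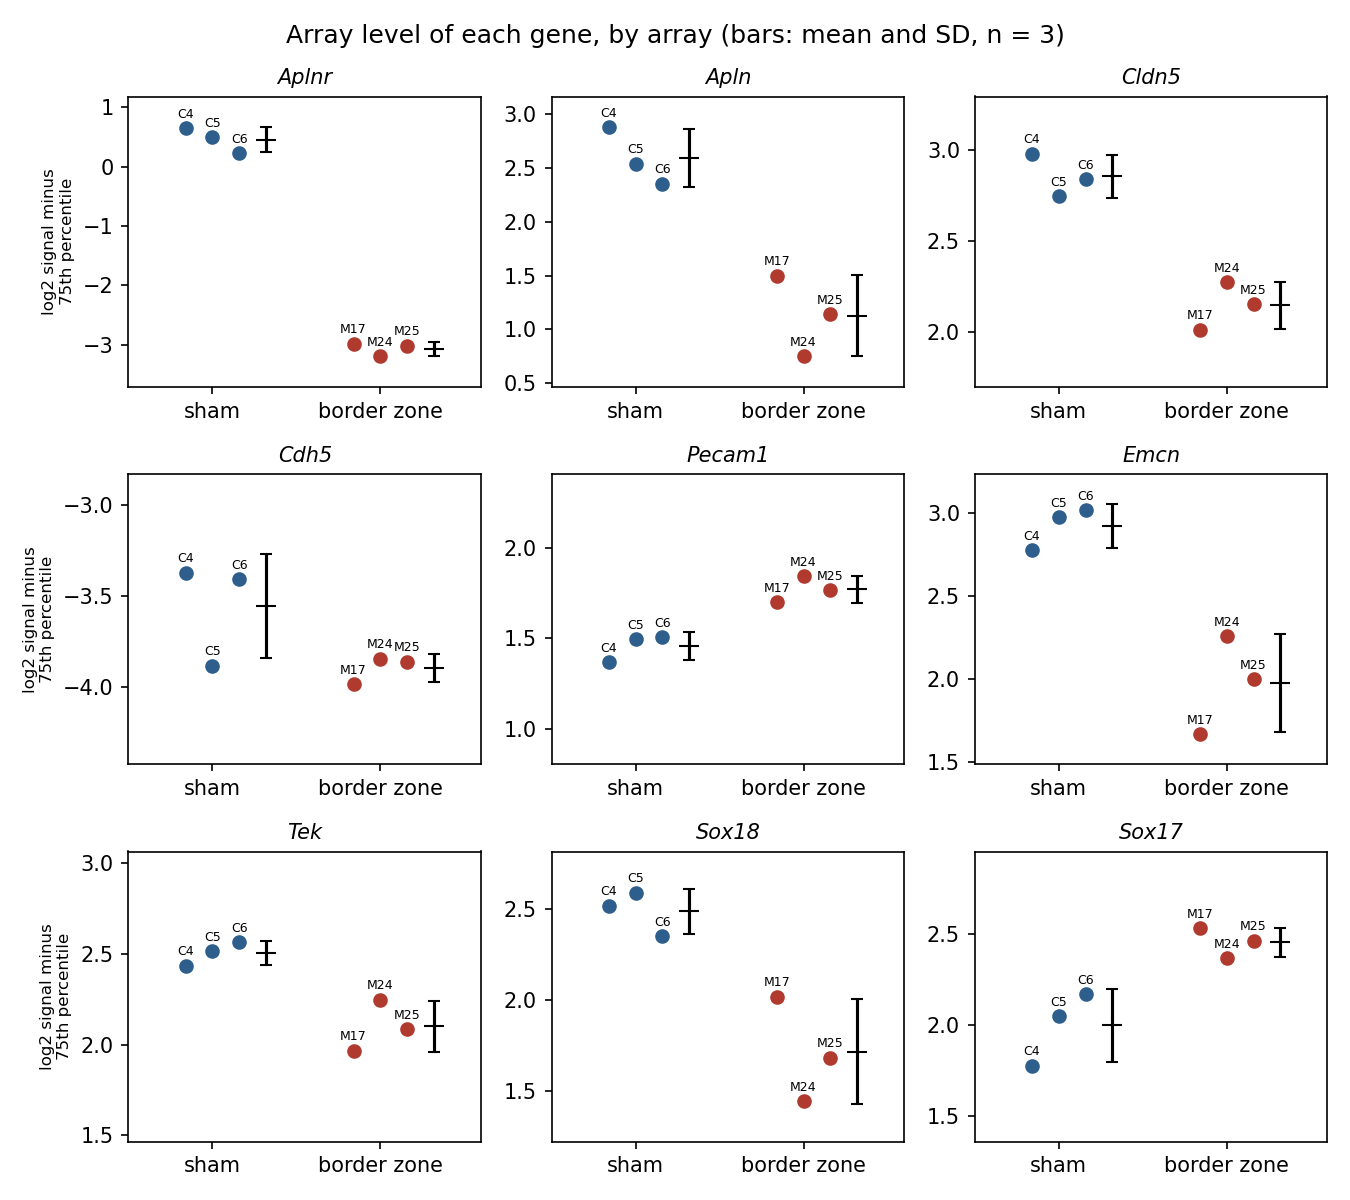
Level of each measured gene on every array (log2 signal minus the array's 75th percentile; blue, sham C4, C5 and C6; red, border zone M17, M24 and M25; black bars, mean and SD of 3 arrays). The y axes differ in range and offset between panels. Aplnr falls from between 0.23 and 0.65 to between -3.20 and -2.98, Pecam1 and Sox17 lie higher in all border zone arrays, and Cdh5 is the only gene whose groups overlap.

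Among junction genes, the claudin of endothelial tight junctions fell while 2 others did not pass the test. Cldn5 stood at 2.98, 2.75 and 2.84 on C4, C5 and C6 and at 2.01, 2.27 and 2.15 on M17, M24 and M25, with no overlap. Its log2 fold change was -0.71 ± 0.13 (1.64-fold lower, adjusted p = 0.0176, limma), and -0.84 (adjusted p = 0.0371) against C4 alone. The call was lost on leaving out M17 (adjusted p = 0.0633), M24 (0.0520) or M25 (0.110), with log2 fold changes of -0.64, -0.77 and -0.71.

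Cdh5 encodes VE-cadherin, the adhesion protein of endothelial adherens junctions. Its probe was dim, at 29.6 to 70.2 on the linear scale over the 6 arrays. It stood at -3.37, -3.88 and -3.41 on C4, C5 and C6 and at -3.99, -3.84 and -3.86 on M17, M24 and M25. C5, which was not well above background, fell among the border zone arrays, so the groups overlapped. The log2 fold change of -0.34 ± 0.17 did not pass (adjusted p = 0.206, limma), nor did the -0.53 against C4 alone (adjusted p = 0.0539).

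Pecam1, which encodes an adhesion molecule of endothelial contacts that platelets and white cells also carry, pointed the other way. It stood at 1.37, 1.49 and 1.51 on C4, C5 and C6 and at 1.70, 1.84 and 1.77 on M17, M24 and M25. Every border zone array was above every sham array, but the difference was small (0.31 ± 0.11, adjusted p = 0.0963, limma). It was 0.40 against C4 alone (adjusted p = 0.0815) and 0.32 without M25 (adjusted p = 0.306).

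Endomucin, a sialoglycoprotein of capillary and venous endothelium, fell by nearly 1 log2 unit. Emcn stood at 2.78, 2.98 and 3.02 on C4, C5 and C6 and at 1.67, 2.26 and 2.0 on M17, M24 and M25. C4 was the lowest sham array here, and the groups did not overlap. The log2 fold change was -0.95 ± 0.18 (1.93-fold lower, adjusted p = 0.0212, limma). Against C4 alone it was -0.80 and did not pass (adjusted p = 0.115). It also did not pass without M17 (-0.79, adjusted p = 0.0542), M25 (-0.96, 0.107), C5 (-0.92, 0.0720) or C6 (-0.90, 0.0535).

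Tek, the receptor for angiopoietins that keeps endothelium quiescent, lay lower in all border zone arrays without passing the test. It stood at 2.43, 2.52 and 2.56 on C4, C5 and C6 and at 1.97, 2.25 and 2.09 on M17, M24 and M25. The gap between the lowest sham and the highest border zone array was small. The log2 fold change was -0.40 ± 0.12 (adjusted p = 0.0680, limma), -0.33 against C4 alone (adjusted p = 0.193) and -0.40 without M25 (adjusted p = 0.248). Without C4 it passed (-0.44, adjusted p = 0.0395, limma). Sham was then only C5 and C6, so group and scan could not be told apart, and 19.9% of all probes were called lower. Tek passed in 4 of the 15 alternative settings, with log2 fold changes from -0.48 to -0.21 over all 15.

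Of the SOXF transcription factor genes, Sox18 fell and Sox17 did not pass. Sox18 stood at 2.52, 2.59 and 2.35 on C4, C5 and C6 and at 2.02, 1.44 and 1.68 on M17, M24 and M25, with every border zone array below sham. Its log2 fold change was -0.77 ± 0.18 (1.71-fold lower, adjusted p = 0.0342, limma). It was -0.81 against C4 alone, which did not pass (adjusted p = 0.109). The call was also lost without M24 (-0.64, adjusted p = 0.102), M25 (-0.76, 0.147), C5 (-0.72, 0.103) or C6 (-0.84, 0.0552).

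Sox17, which is known from arterial endothelium, stood at 1.77, 2.05 and 2.17 on C4, C5 and C6 and at 2.53, 2.37 and 2.46 on M17, M24 and M25. Every border zone array was above every sham array, and C4 was the lowest of all. The log2 fold change of 0.46 ± 0.14 did not pass (adjusted p = 0.0727, limma). Against C4 alone it was 0.68 and passed (adjusted p = 0.0365), and without M25 it was 0.45 and did not (adjusted p = 0.242). Sox18 relative to Sox17 was lower in the border zone by 1.23 log2 units in the mean. That this ratio separated the groups follows from the levels above, with Sox18 lower and Sox17 higher in every border zone array.

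**Figure D2:**
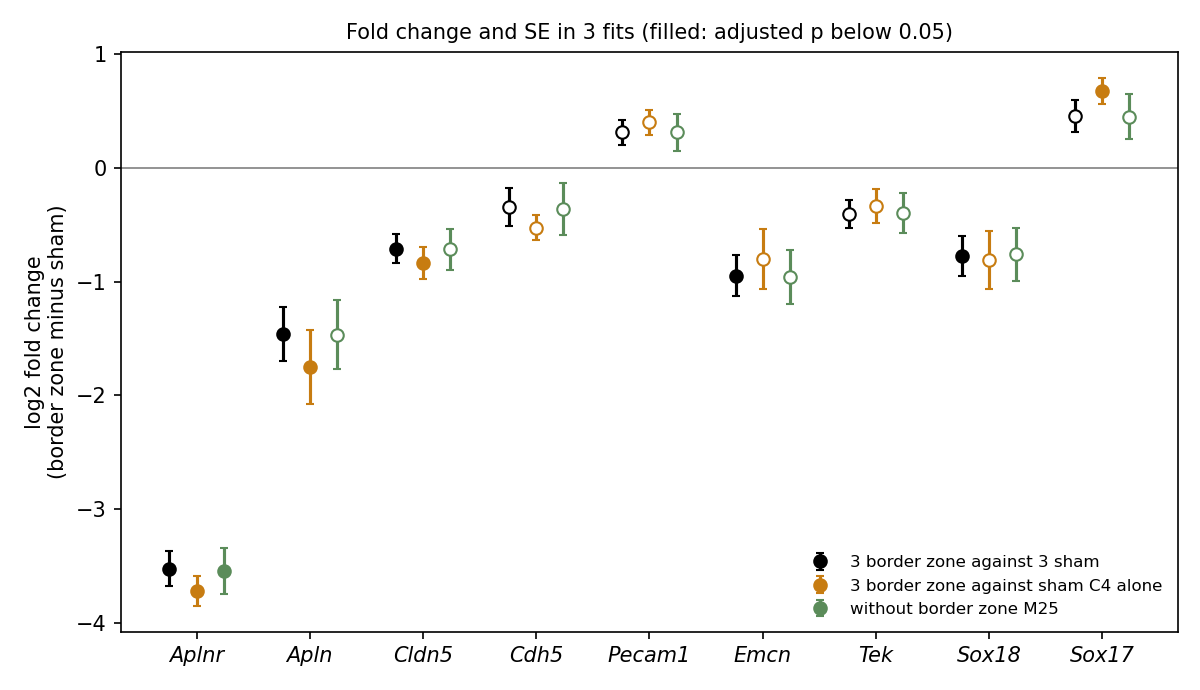
Log2 fold change of each gene (border zone minus sham; bars, standard error of the fit) with all 6 arrays (black), against sham C4 alone (orange) and without border zone array M25 (green); filled points had an adjusted p below 0.05. Aplnr lies between -3.72 and -3.52 and is filled in all 3 fits, while Apln, Cldn5, Emcn, Sox18 and Sox17 are filled in some fits only and Cdh5, Pecam1 and Tek in none.

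Of the 9 genes, 5 fell (Aplnr, Apln, Emcn, Sox18 and Cldn5), 0 rose and 4 did not pass. Over all probes, 10.3% were called lower and 9.01% higher in the same limma fit. At an unadjusted p below 0.05, 6 of the 9 were lower and 2 higher (Pecam1 and Sox17). The groups did not overlap for 6 genes that were lower (22.8% of all probes) and for 2 that were higher (20.9%). Median log2 fold changes were -0.71 over the 9 genes and -0.03 over all probes. Scaling by each array's median moved the value of all probes to 0.16 and turned the split of calls from 46.7% to 67.6% higher, and 3 of the 9 then fell (Aplnr, Apln and Emcn) while Sox17 rose. Correcting the background with normexp moved it to -0.35, and the same 3 fell.

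Fewer of the 9 passed once arrays were left out, except without C4, when 6 fell and 19.9% of all probes were called lower. Against C4 alone, 3 fell (Aplnr, Apln and Cldn5) and Sox17 rose, where 7.5% of all probes were called lower and 8.43% higher. Without M25, Aplnr alone fell, where 1.24% of all probes were called lower. The direction of each of the 9 genes was the same in each setting that could be fitted (14 for Cdh5, 15 for the others). Scan as a block and sham C4 alone are 2 of these settings but give the same fit, so it is counted 2 times. Apart from Aplnr, the number of these settings in which a gene passed was 13 for Apln, 9 for Cldn5, 8 for Emcn, 5 for Sox18, 4 for Tek, 4 for Sox17, 1 for Pecam1 and 0 for Cdh5.

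**Figure D3:**
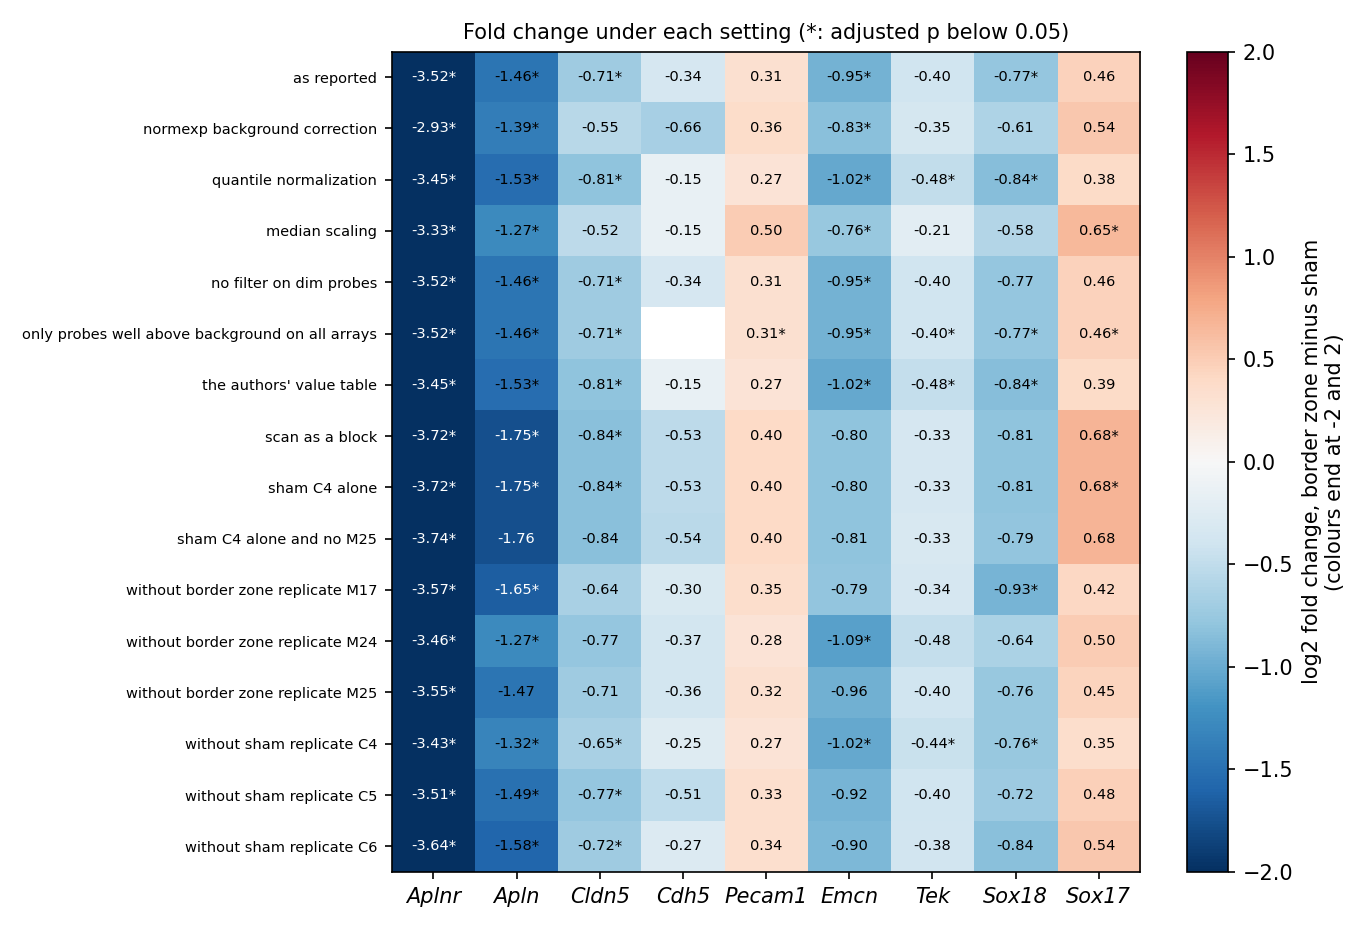
Log2 fold change of each gene (columns; border zone minus sham) under the reported setting and each of 15 alternatives (rows), with an asterisk where the adjusted p was below 0.05 and a blank where Cdh5 was not tested. Colours end at -2 and 2. The rows for scan as a block and sham C4 alone give the same fit. The Aplnr column carries an asterisk in every row, and no gene changes sign down its column.

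Levels relative to Pecam1 show how unevenly these endothelial genes moved within the same arrays. Of the 8 other genes, 7 were lower relative to Pecam1 in every border zone array than in every sham array (42.8% of the 17929 other probes). For all of these but Cdh5 this was fixed beforehand, since Pecam1 was higher and the gene lower in every border zone array. The count is therefore no further result. The mean changes of this ratio on the log2 scale were -3.84 for Aplnr, -1.77 for Apln, -1.26 for Emcn, -1.09 for Sox18, -1.02 for Cldn5, -0.72 for Tek and -0.66 for Cdh5. Sox17 changed by 0.14 relative to Pecam1, and its groups overlapped. These ratios show unequal change only. Pecam1 is also carried by white cells, whose markers are given below.

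Other genes of the apelin pathway were read from a further list. Its counts are too small to set apart from all probes, of which 9.01% were called higher and 10.3% lower. The list held 17 genes for peptide processing, G proteins, arrestins and downstream targets, of which 15 were tested: 2 rose, 0 fell (4 were lower at an unadjusted p below 0.05, limma) and 13 did not pass, with a median log2 fold change of -0.07. Gnai3, an inhibitory G-protein subunit, rose (0.80 ± 0.12, adjusted p = 0.0116, limma; 0.71 against C4). Gna13, another G-protein subunit, was at least 1.60-fold higher (1.94 ± 0.41, adjusted p = 0.0280), with sham C5 and C6 not above background, and read -0.12 with the normexp correction. Nos3, the endothelial nitric oxide synthase downstream of the receptor, was at -0.03 ± 0.13 (adjusted p = 0.872). Nos3 was named after its value was seen. Against C4 alone Gna13 read 1.15 and did not pass (adjusted p = 0.135). Neither of the 2 rises passed without M25.

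Further genes known in endothelium were read from 5 lists without the 9 genes above, counting each gene once. The arrays read whole tissue, so the cells in which these genes changed were not told apart. Of 89 genes, 69 were tested: 14 fell (20.3%, against 10.3% of all probes), 5 rose (7.25%, against 9.01%) and 50 did not pass. Their median on the log2 fold scale was -0.20, or -0.23 when only C4 stood for sham. Of the 69, groups did not overlap for 26 that were lower (22.8% of all probes) and for 13 that were higher (20.9% of all probes). The counts of calls changed with scaling and with single arrays, as did the shares of all probes. With each array scaled by its median, 8 fell and 7 rose (11.6% and 10.1%, against 5.18% and 10.8% of all probes) and the median was -0.01. Without M25 2 fell and 1 rose (2.90% and 1.45%, against 1.24% and 1.60% of all probes). Leaving out M17 gave 7 that fell (10.1%, against 4.12% of all probes), and leaving out M24 gave 8 (11.6%, against 3.46%). Leaving out C5 gave 8 (11.6%, against 4.14%), and leaving out C4 gave 21 (30.4%, against 19.9%).

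Of 25 tested junction and surface genes, 5 fell and 1 rose (10.3% and 9.01% of all probes). Cd93, a lectin-like surface protein of endothelium, fell furthest: it stood at 3.63, 3.83 and 3.89 on C4, C5 and C6 and at 2.24, 1.98 and 2.09 on M17, M24 and M25 (-1.69 ± 0.13, adjusted p = 0.00197, limma). Its groups were well apart, and the difference from C4 was -1.53. The junction plaque protein gene Jup fell by 1.18 and the surface sialomucin gene Cd34 by 1.00 on the log2 scale. Ctnnd1 (-0.50), which encodes a catenin of adherens junctions, also fell; it lay outside the naming rule and was named after its value was seen. Procr, the endothelial receptor for activated protein C, rose by 2.63 ± 0.30 (adjusted p = 0.00505). Without M25, Cd93 was the only gene of this list that fell and Procr the only one that rose (1.24% and 1.60% of all probes). The median of the list was -0.33, and -0.35 against C4 alone.

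Of 16 tested transcription factor genes, 4 fell and 2 rose (10.3% and 9.01% of all probes), with a median of -0.06. Counts this small cannot be set apart from those shares. The homeobox gene Meox2 (-0.95 ± 0.11, adjusted p = 0.00520, limma) and the ETS factor gene Elk3 (-0.94 ± 0.12, adjusted p = 0.00744) fell. The ETS factor genes Ets1 (-0.65) and Fli1 (-0.62) fell too, while Erg (0.59, adjusted p = 0.285) and Etv6 (0.48, adjusted p = 0.125) did not pass; these 4 were named after their values were seen. Ets2, of the same family, rose (0.85 ± 0.13, adjusted p = 0.0122), as did Epas1, which encodes HIF-2alpha (0.82 ± 0.14, adjusted p = 0.0145). Sox7, the remaining SOXF gene, read -0.96 ± 0.29 and did not pass (adjusted p = 0.0663), but passed against C4 alone (-1.57, adjusted p = 0.0100). It too was named after its value was seen. Against C4 alone the median of the list was -0.26. Without M25 0 passed in limma, when 1.24% of all probes were called lower and 1.60% higher. At an unadjusted p below 0.05, 5 of the list were then lower and 2 higher.

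The remaining endothelial lists were small, and their counts cannot be set apart from the shares of all probes (10.3% called lower, 9.01% higher). Of 7 tested angiopoietin and VEGF receptor genes, the co-receptor Nrp1 fell (-0.68 ± 0.17, adjusted p = 0.0407, limma). The VEGF receptor gene Flt1 was at least 1.17-fold higher (0.49 ± 0.12, adjusted p = 0.0422), was not above background on C5 and C6, and read -0.43 with normexp. Of 12 genes of heart capillary endothelium, the caveolin gene Cav2 (-1.07 ± 0.11, adjusted p = 0.00408), Meox2 and the chemokine gene Cxcl12 (-0.61 ± 0.12, adjusted p = 0.0233) fell. Rgcc, a regulator of the cell cycle, rose (0.84 ± 0.20, adjusted p = 0.0387). Of 10 arterial and Notch pathway genes, the growth factor gene Vegfc (-1.21 ± 0.15, adjusted p = 0.00595) and the elastic fibre gene Fbln5 (-0.64 ± 0.15, adjusted p = 0.0370) fell. Without M25, Cav2 was the only gene of these 3 lists that passed (1.24% of all probes were called lower, 1.60% higher). Against C4 alone the calls of Nrp1 (-0.71, adjusted p = 0.134), Flt1 (0.34, 0.121) and Cxcl12 (-0.45, 0.0671) were lost, while Cav2 (-1.16), Vegfc (-1.16), Fbln5 (-0.79) and Rgcc (1.17) still passed.

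**Figure D4:**
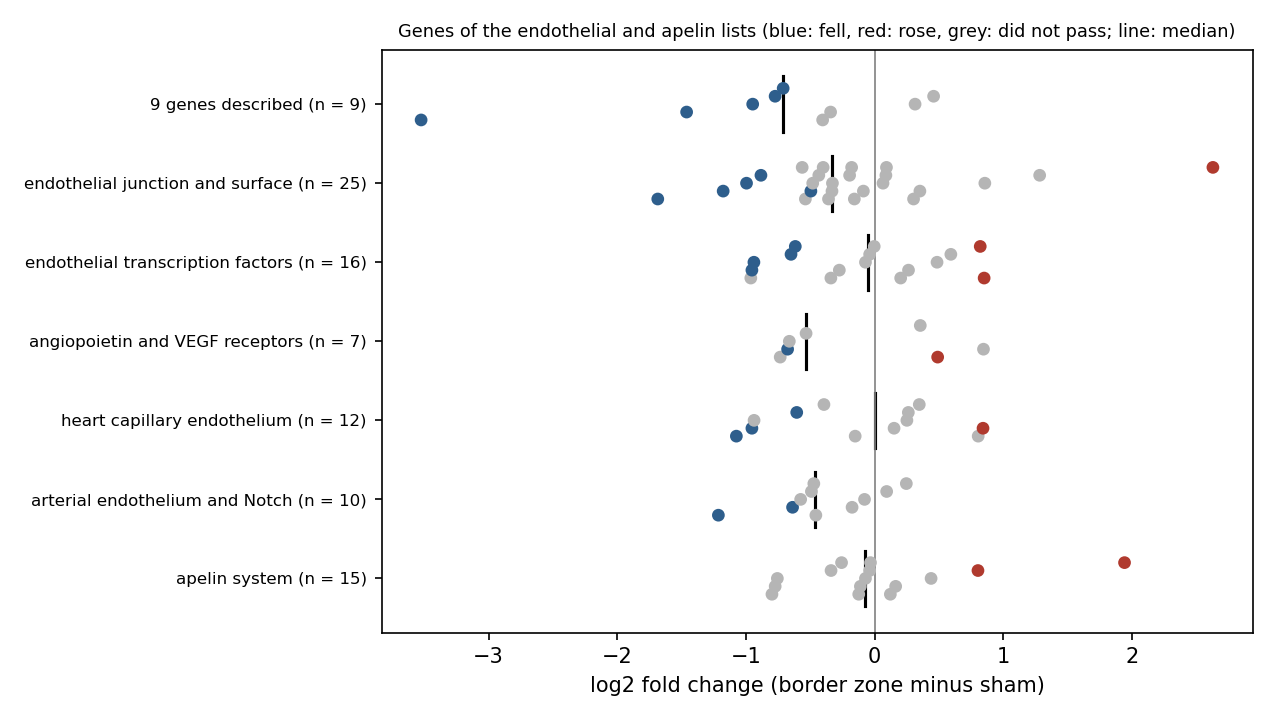
Log2 fold change (border zone minus sham) of every tested gene in the 9 genes described and in 6 lists (rows; n is the number of genes tested; blue, fell; red, rose; grey, did not pass; black line, median of the list). Vertical offsets within a row only separate the points, and some genes stand in more than 1 list. The median of the 9 genes is -0.71, and the lowest point is Aplnr at -3.52.

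Among markers of other cells, those of neutrophils had the largest median difference between the groups in the reported setting. With normexp, those of central neurons and glia did (-1.47, against 0.98 for neutrophils). Without C4 both medians were of like size (-2.95 and 2.91). Over all probes 9.01% were called higher and 10.3% lower. The counts for fibroblast, smooth muscle, lymphocyte and red cell genes below are too small to set apart from these shares. All 7 tested neutrophil genes rose (median 2.99). Of these, 2 were above background on every sham array, so the other 5 entered the test through the border zone alone. With normexp 2 of the 7 rose (median 0.98), without M25 4 and against C4 alone 6. The log2 of their summed scaled signal was -1.83 (C4), -1.55 (C5) and -1.14 (C6) in sham and 2.47 to 2.68 in the border zone. Of 11 monocyte and macrophage genes, 5 rose and 2 fell, with summed signals of 5.44 to 5.67 (log2) in sham and 6.37 to 6.43 in the border zone. Of 8 fibroblast genes 1 rose and 2 fell, of 10 smooth muscle and pericyte genes 1 rose and 2 fell, and of 6 lymphocyte and 6 red cell and platelet genes 1 each rose. Without M25 these counts were 3 and 0 (monocyte and macrophage), 1 and 0 (fibroblast) and 0 for the smooth muscle, lymphocyte and red cell lists (3, 1 and 1 genes at an unadjusted p below 0.05, limma). With normexp the monocyte and macrophage median was 0.03, against 0.46 as reported. Of 10 central neuron and glia genes 3 fell, with summed signals of 3.58 (C5) and 3.97 (C6) against 1.21 (C4) and 0.71 to 0.91 in the border zone. Of 10 brain endothelium markers 2 rose and 0 fell (2 were lower at an unadjusted p below 0.05, limma). The part of these cells in the levels of the 9 genes was not tested. The 9 genes differed between C4 and the mean of C5 and C6 by -0.33 (Sox17) to 0.43 (Apln), and Aplnr by 0.29.

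**Figure D5:**
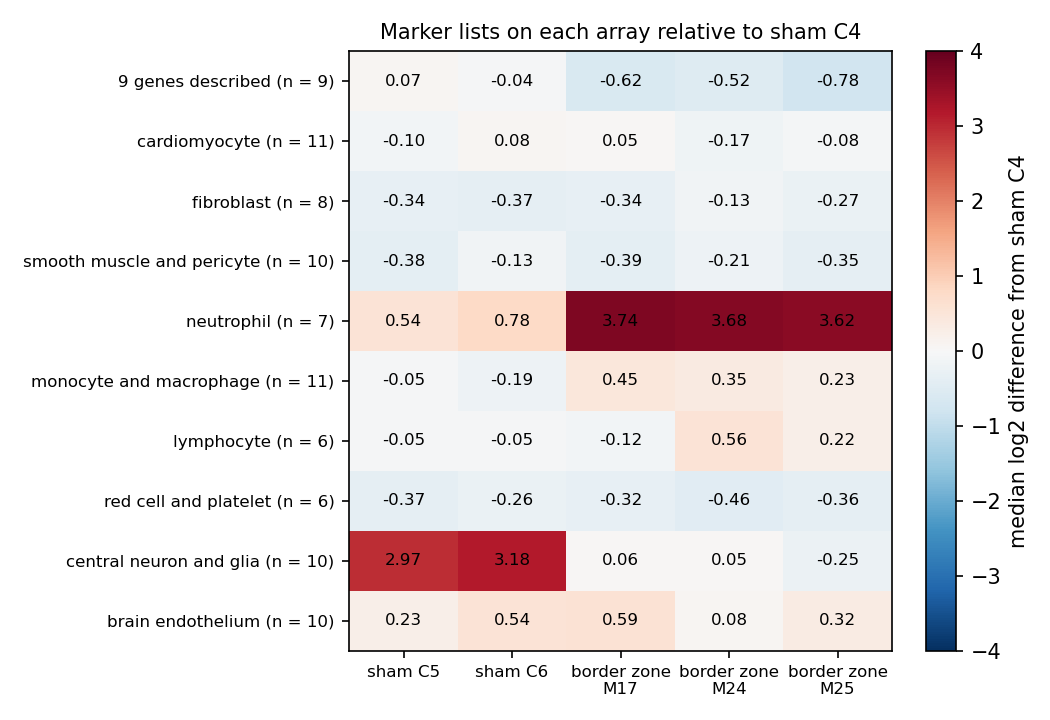
Median log2 difference of each marker list from sham array C4 (rows, with the number of genes tested; columns, the other 5 arrays; colour scale from -4 to 4). The 9 genes are near 0 on C5 and C6 (0.07 and -0.04) and at -0.52 to -0.78 on the border zone arrays, central neuron and glia markers are high on C5 and C6 only, and neutrophil markers on the border zone arrays.

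The genes whose levels followed Aplnr most closely over the 6 arrays were Cntln, Dolpp1, Loxl1, Aspn and Cav2, among 8165 other named genes above background on every array. Pearson correlations were 0.999 for each, over 6 points that mainly share the difference between the groups, so this is a description. Loxl1, a crosslinking enzyme of elastic fibres, fell by 2.15 and Aspn, a small proteoglycan of the matrix, by 1.66 on the log2 scale. Cntln, a centriole protein gene, fell by 1.68, and Dolpp1 differed by -0.34 without passing (adjusted p = 0.0618, limma). Of the 9 genes, Apln (0.96) and Cldn5 (0.96) were most like Aplnr, followed by Sox18 (0.92), Emcn (0.91) and Tek (0.89). In this order they ranked 494, 528, 945, 1148 and 1371 among the 8165 genes, so many others followed Aplnr more closely. Sox17 (-0.90) and Pecam1 (-0.95) ran against it.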

How the data were processed

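Per the labels, total RNA of 6 rat hearts was read on 1 Agilent array each. Per the file headers and the submitters' processing notes, the signal of each spot is an intensity that Agilent Feature Extraction (version 11.0.1.1) wrote after background subtraction. Other deposited columns mark control, outlier and above-background spots with 0 or 1. The authors also deposited their own log2 values, whose columns share nearly the same quantiles. It was used as an alternative only (17769 tested probes matched).

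Log2 processed signal minus each array's 75th percentile was analysed. Control spots and outlier spots were left out and spots of a probe averaged, which left 24614 of 24684 probes. Tested were the 17930 probes that stood clearly above background on every array of either group. Groups were compared in R 4.3.3 by a two-sided limma test (version 3.58.1, lmFit, eBayes), after checks on simulated data. Tables and figures used Python 3.11.15. Precision is limited by the number of arrays, 3 per group.

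Probes were named through RefSeq accessions in a GRCr8 gene table, and the array headers name another build, so no array coordinates were used. Where the dimmer group was at background, the fold is a bound from the lowest signal above background on each array. From each further list, up to 4 passing genes with the largest change were named, or the gene with the smallest p where none passed; lists of other cell types are given by counts only. For Aplnr, the 5 genes with the highest Pearson correlation were named. The members and lists were chosen with earlier results of these data known. Alternatives covered background correction, scaling, the filter on dim probes, the authors' table, scan, and left-out arrays. Some genes counted in the lists are not reported by name here.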

Additional observations from a re-analysis of the deposited data

How the results depend on the processing

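With the reported setting 3460 probes passed, 5 of the 9 genes fell and 0 rose. The number of probes passing was 2293 with normexp background correction, 1826 with no filter on dim probes and 76 with sham C4 alone and no M25. Leaving out 1 array at a time gave 509 (without M25) to 7308 (without C4). The number of the 9 genes that rose was 1 with median scaling, 2 when probes had to be above background on all 6 arrays, 1 with scan as a block and 1 against C4 alone. The number that fell was 3 with normexp (7.19% of all probes fell), 3 with median scaling (5.18%) and 3 with scan as a block (7.5%). It was 4 with no filter on dim probes (4.20%), 6 with quantile normalization (9.24%) and 6 with the authors' values (9.87%). With probes above background on all 6 arrays, 6 of 8 fell (20.2%). Leaving out 1 array gave 1 to 6. The cause was not tested, except that the fits with fewer arrays have fewer residual degrees of freedom. With normexp, Gna13 read -0.12 and Flt1 -0.43, against rises in the reported setting. Over 45 other named genes, 465 values under the alternatives kept their direction and call, 195 kept the direction but no longer passed, 5 newly passed and 2 reversed. The mean over a gene's probes was not run for the 9 genes, since each has 1 probe. The normexp correction used median spot signals, because the scanner files used here have no column of mean signals. No paired analysis was possible because the groups share no replicate numbers. The signal of Cdh5 was close to background.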

Other observations

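Lists of venous, lymphatic and brain endothelium each held 2 genes that rose, and only the lymphatic list held a gene that fell. In the endocardial list none passed. These counts are too small to set apart from the shares of all probes (9.01% called higher, 10.3% lower). A few genes of these lists (Plvap, Nr2f2 and Flt4 among them) also stand in the lists above. Of 5 tested genes of venous and activated endothelium, the adhesion molecule genes Sele (2.87 ± 0.27, adjusted p = 0.00320, limma) and Icam1 (1.98 ± 0.34, adjusted p = 0.0157) rose, and Vcam1 read 2.07 ± 0.70 and did not pass (adjusted p = 0.0894; named after its value was seen). Against C4 alone Sele rose by 2.65 on the log2 scale and passed, while Icam1 (1.89) did not. Without M25 Sele was the only gene of this list that passed. Sele stood at -3.45, -4.23 and -3.31 on C4, C5 and C6 and at -0.99, -0.61 and -0.79 on M17, M24 and M25, so its groups were far apart, and C5 was at background.

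Of 6 tested lymphatic genes, Pdpn, a mucin-type glycoprotein, rose (1.62 ± 0.11, adjusted p = 0.00152, limma), as did the hyaluronan receptor gene Lyve1 (1.12 ± 0.24, adjusted p = 0.0275). Prox1, a transcription factor known from lymphatic endothelium, fell in this whole tissue (-1.42 ± 0.13, adjusted p = 0.00306, limma). Prox1 stood at -1.74, -2.07 and -1.82 on C4, C5 and C6 and at -3.21, -3.38 and -3.31 on M17, M24 and M25, with no overlap. Prox1 and Pdpn passed without M25 and against C4 alone (-1.56 and 1.72), and Lyve1 passed in neither (0.61 against C4, adjusted p = 0.0514). Of 3 tested endocardial genes 0 passed in limma (1 was higher at an unadjusted p below 0.05), and Plvap, a protein of endothelial diaphragms, had the smallest p (1.28 ± 0.37, adjusted p = 0.0629). In the brain endothelium list the amino acid carrier gene Slc7a5 (2.56 ± 0.15, adjusted p = 0.00114) and the glucose carrier gene Slc2a1 (1.88 ± 0.28, adjusted p = 0.0103) rose; both are also known outside brain endothelium.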
